A study of Rattus norvegicus with 9 samples.

Results

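Transcripts of the transcription factor ATF4, of its targets and partners and of other genes of the unfolded protein response were examined in inflamed and untreated rat skin. The genes were chosen by name: Atf4, Ddit3, Ppp1r15a, Xbp1, Herpud1, Trib3, Asns, Chac1 and Sesn2. Of these 9, 8 stood under that symbol in the deposited table, with 10 probe sets, out of 19101 named genes and 43685 probe sets on the array. Sesn2 stood there under the older symbol RGD1566319, and its values are given beside the 8 without being counted among them. For a gene with more than 1 probe set, the probe set with the highest mean log2 intensity over the 9 arrays stood for it, and the others are given beside it.

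Skin was profiled from 4 Sprague Dawley rats that received carrageenan (CGN), a seaweed polysaccharide that provokes acute inflammation and pain, and from 5 Sprague Dawley rats titled non-treated. The dose was 30 mg of CGN per kg, paw swelling and sensitivity to pressure were assessed at 3 hours, and the skin was harvested at 4 hours. Age, injection site and a vehicle for the controls are not given in the labels, so what CGN did and what the injection or the paw tests did cannot be told apart. Each array stood for the RNA of a single labelled animal, and values are intensities on a linear scale after normalization by the authors.

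ATF4 is the main effector of the integrated stress response, in which kinases that sense amino acid shortage, viral RNA, haem shortage or misfolded protein in the endoplasmic reticulum (ER) phosphorylate the translation factor eIF2 alpha. General translation then falls, while translation of Atf4 mRNA rises, and ATF4 turns on genes of amino acid supply and of stress adaptation. The unfolded protein response joins this branch to those of the ER sensors IRE1 and ATF6, which raise chaperones and the degradation of misfolded ER proteins. ATF4 and XBP1 are also controlled by translation and by mRNA splicing, which these arrays do not read: the values below are mRNA levels.

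Across the whole array, 22.2% of the 19101 genes passed limma at an adjusted p under 0.05, 8.72% higher and 13.5% lower in CGN, and the median log2 change of all genes was -0.01. Keratinocyte markers lay at a mean log2 level of 11.38 to 11.61 in CGN and 11.35 to 11.92 in controls, and 0 of 9 rose and 1 fell, so both groups carried the markers of skin. The skeletal muscle markers lay at 5.49 to 7.75 in CGN and at 8.45 to 10.84 in controls, and 17 of 20 fell and 0 rose. Neutrophil markers lay at 6.35 to 6.83 in CGN and 5.10 to 5.31 in controls, with 10 of 12 higher, and monocyte and macrophage markers at 8.08 to 9.15 in CGN and 6.97 to 7.56 in controls, with 7 of 10 higher. Plasma cell and B cell markers lay at 5.21 to 5.29 in CGN and 5.10 to 5.37 in controls, with 0 of 8 past the test and 0 at an unadjusted p under 0.05. CGN replicate 1 scored -20.8 on the first principal component, between the other CGN arrays (-55.1 to -53.7) and the controls (33.0 to 41.3). In whole skin, fewer cells of a type and less RNA per cell cannot be told apart, and the part that infiltrating cells have in the changes below was not tested. The muscle difference was examined by adding the mean muscle level as a covariate, and those values are given beside the results.

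Of the 8 genes, 5 rose and 0 fell in CGN skin, against 8.72% of all genes higher: Ppp1r15a, Ddit3, Atf4, Xbp1 and Herpud1. The other 3, Trib3, Asns and Chac1, did not pass the test. The median log2 change of the 8 was 0.57. For 4 of them (Ppp1r15a, Ddit3, Atf4 and Xbp1) every CGN array lay above every control array, as it did for 8.44% of all genes. Changes are log2 CGN minus control ± standard error from limma, with p adjusted over all genes by Benjamini-Hochberg.

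Atf4 encodes the leucine-zipper factor at the centre of the response. Its intensity was 3090, 4237, 2945 and 3548 in CGN replicates 1 to 4, against 2128.5, 2051, 1891, 2216 and 1997 in control replicates 1 to 5. The groups did not overlap, and the CGN arrays were spread more widely (SD 0.24 on the log2 scale, n = 4) than the controls (SD 0.09, n = 5). Atf4 rose 1.67-fold (95% interval 1.40 to 1.98, log2 change 0.74 ± 0.11, limma adjusted p = 0.00122).

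Ddit3 encodes CHOP, a factor induced downstream of ATF4 that can promote cell death under lasting ER stress. It stood at 270, 385, 263 and 374 in CGN skin, against 172, 158, 213, 198.5 and 187 in control skin. All 4 CGN arrays exceeded the highest control, and CGN replicates 2 and 4 lay well above replicates 1 and 3. The rise was 1.72-fold (95% interval 1.38 to 2.14, log2 change 0.78 ± 0.14, limma adjusted p = 0.00298).

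Ppp1r15a encodes GADD34, the stress-induced subunit that directs protein phosphatase 1 to eIF2 alpha and so reverses the block on translation. It was measured at 607, 828, 532 and 809 in CGN skin, against 296, 297, 209.6, 334 and 319 in control skin. This was the largest change of the 8 and the only one of at least 1 on the log2 scale, which 3.44% of all genes reached upward: 2.37-fold (95% interval 1.83 to 3.08, log2 change 1.25 ± 0.17, limma adjusted p = 0.000551). Control replicate 3 stood apart as the lowest array of the gene, and without single arrays the change ran from 1.13 to 1.37.

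Xbp1 encodes the factor that IRE1 activates by splicing its mRNA and that raises ER chaperones and lipid synthesis, also in secretory cells such as plasma cells. Its main probe set read 2312, 2847, 2694 and 3112.5 in CGN skin, against 1807, 1631, 1700, 2137 and 1871 in control skin, without overlap. A second probe set, dimmer, read 320, 447, 372 and 455 in CGN skin, against 290, 255, 243, 314 and 236 in control skin, again without overlap. The log2 changes of both were alike, 0.58 ± 0.11 on the main probe set (limma adjusted p = 0.00412) and 0.57 ± 0.13 on the second (adjusted p = 0.0119 in a fit of all probe sets, where 5.3% rose). The deposited table does not say which splice forms either probe set reads.

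Herpud1 encodes an ER membrane protein of the degradation machinery for misfolded proteins and is a target of both ATF4 and ATF6. It had 1340, 2360, 1712 and 2339 in CGN skin, against 1477, 1108, 1104, 1442 and 1312 in control skin. CGN replicate 1 lay among the controls, so the groups overlapped, and the CGN spread was wide (SD 0.39 on the log2 scale, n = 4, against 0.20 in controls, n = 5). The log2 change was 0.56 ± 0.18, close to the threshold (limma adjusted p = 0.0424). It lost the call when CGN replicate 2, 3 or 4 or control replicate 2, 3, 4 or 5 was left out (adjusted p up to 0.131), and without CGN replicate 1 it was 0.73 (adjusted p = 0.00471).

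**Figure D1:**
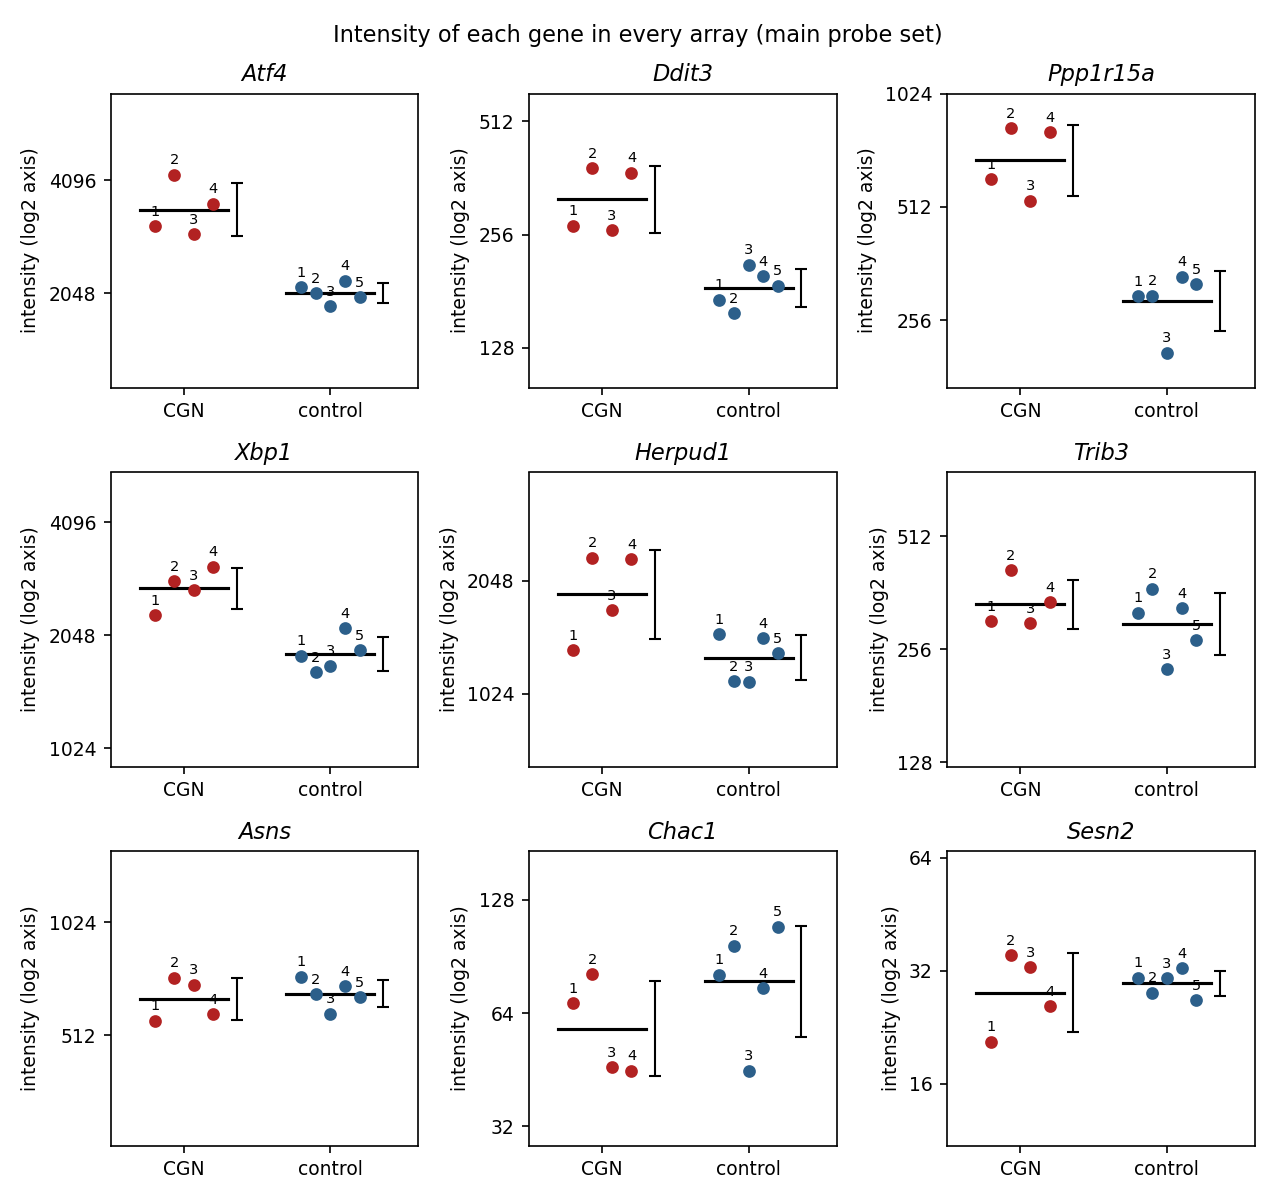
Intensity of the main probe set of each gene in every array, on log2 axes that each span the same range; points are arrays with their replicate number, lines are geometric means and bars are 1 SD of the log2 values. For Atf4, Ddit3, Ppp1r15a and Xbp1 the 4 CGN points lie above all 5 control points, while for Trib3, Asns, Chac1 and Sesn2 the groups overlap.

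Trib3 encodes a pseudokinase that ATF4 and CHOP induce and that holds both in check. It had 304, 416, 300 and 341 in CGN skin, against 320, 371, 227, 329 and 270 in control skin. The groups overlapped throughout, and the log2 change of 0.17 ± 0.15 did not pass (95% interval -0.16 to 0.51, limma adjusted p = 0.50).

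Asns encodes asparagine synthetase, a textbook target of ATF4 under amino acid shortage. Its main probe set read 560, 729, 697 and 583 in CGN skin, against 733, 658, 584, 690 and 647 in control skin. The highest array was a control, and the interval of the log2 change of -0.05 ± 0.11 ran from -0.29 to 0.19 (limma adjusted p = 0.815), which leaves out a rise as large as that of Atf4. A second, dim probe set at 15.2, 12.6, 13.4 and 13.6 in CGN skin and 11.4, 10.9, 12.1, 13.9 and 9.8 in control skin differed by 0.24 ± 0.11 (adjusted p = 0.198 in the fit of all probe sets).

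Chac1 encodes an enzyme that breaks down glutathione and is induced by ATF4 with CHOP. It had 68.1, 81.3, 46.0 and 45.0 in CGN skin, against 80.9, 96.8, 45.0, 74.6 and 108.7 in control skin. Arrays varied most for this gene of the 8, with an SD of 0.42 in CGN (n = 4) and 0.49 in controls (n = 5) on the log2 scale. The log2 change was -0.42 ± 0.26 (95% interval -0.99 to 0.15, limma adjusted p = 0.310), and with control replicate 3 left out it was -0.62 (adjusted p = 0.0615).

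Sesn2, under its older symbol, encodes a stress-induced inhibitor of the growth kinase mTORC1. It read 20.7, 35.2, 32.7 and 25.8 in CGN skin, against 30.7, 28.0, 30.6, 32.5 and 26.7 in control skin, and its log2 change of -0.08 ± 0.15 did not pass (95% interval -0.41 to 0.25, limma adjusted p = 0.775). Its dimmer probe set, between 11.8 and 14.7 in CGN skin and between 10.1 and 13.2 in control skin, differed by 0.22 ± 0.10 (adjusted p = 0.210 in the fit of all probe sets). No detection calls were in the files used here, so it cannot be said whether such low intensities lie above background.

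With the muscle level as a covariate, 0 of the 8 genes passed limma, where 2.25% of all genes were higher and 0.319% lower. An unadjusted p under 0.05 was reached by 3 of the 8, and the share of all genes at that threshold was not counted. The muscle level correlated with group at -0.823 over the 9 arrays, and the median standard error of the 8 was 0.270 with the covariate and 0.148 without it. The log2 changes with the covariate were 1.04 ± 0.30 for Ppp1r15a, 0.72 ± 0.26 for Ddit3, 0.62 ± 0.21 for Atf4, 0.40 ± 0.20 for Xbp1 and 0.34 ± 0.31 for Herpud1 (limma adjusted p = 0.127 to 0.676). For Trib3, Asns and Chac1 they were 0.02 ± 0.28, -0.28 ± 0.18 and -0.85 ± 0.45. The 5 genes that rose thus stayed positive and the estimate of each was lower.

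**Figure D2:**
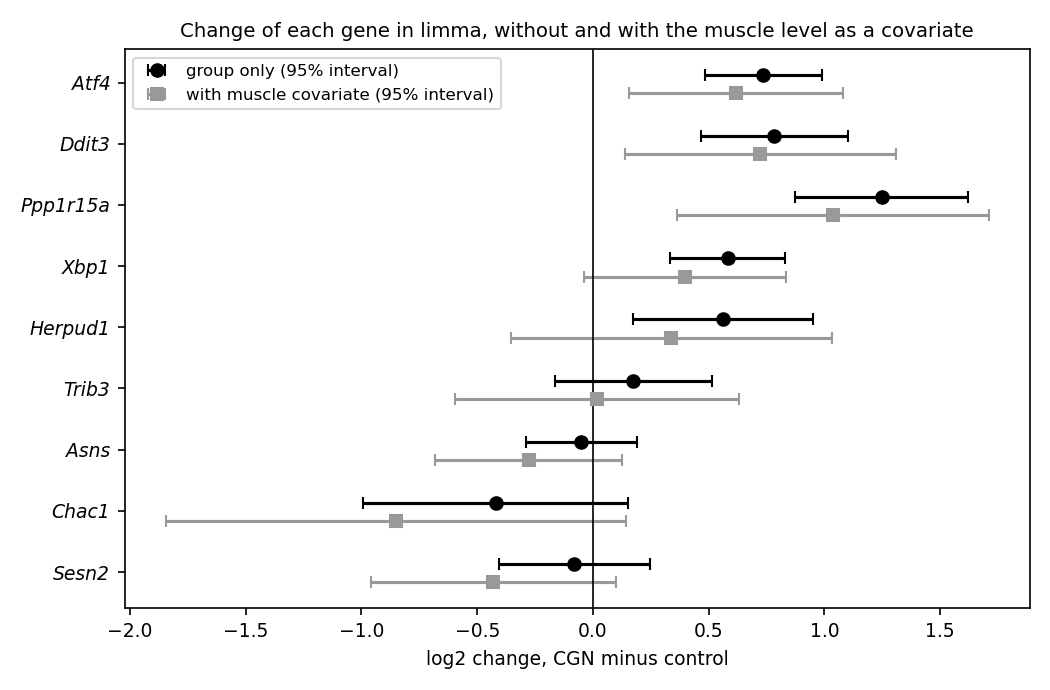
Log2 change (CGN minus control) of each gene with its 95% interval, from limma with group alone (circles) and with the mean muscle level added (squares). With the covariate the intervals widen, and those of Atf4, Ddit3 and Ppp1r15a stay above 0.

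The changes of the 8 genes were unequal. To compare them within arrays, the log2 ratio of each of the other 7 genes to Atf4 was taken in every array and the groups were compared by an exact permutation test over arrays (2-sided, 7 comparisons, smallest possible p = 0.0159 from 126 splits). These comparisons were chosen with the values known. Asns changed less than Atf4, by -0.79 on the log2 scale, and its ratio was below that of every control in 4 of 4 CGN arrays (exact permutation p = 0.0159, adjusted p = 0.0278). The same p and adjusted p were reached by Trib3 (-0.56), Chac1 (-1.16) and, in the other direction, Ppp1r15a (0.51), each with 4 of 4 CGN arrays outside the control range. After quantile normalization the difference for Trib3 was -0.40 and did not pass (exact permutation, adjusted p = 0.0556). For Ddit3 (0.05), Xbp1 (-0.15) and Herpud1 (-0.18) no difference from Atf4 was detectable (exact permutation, adjusted p = 0.667, 0.289 and 0.333).

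**Figure D3:**
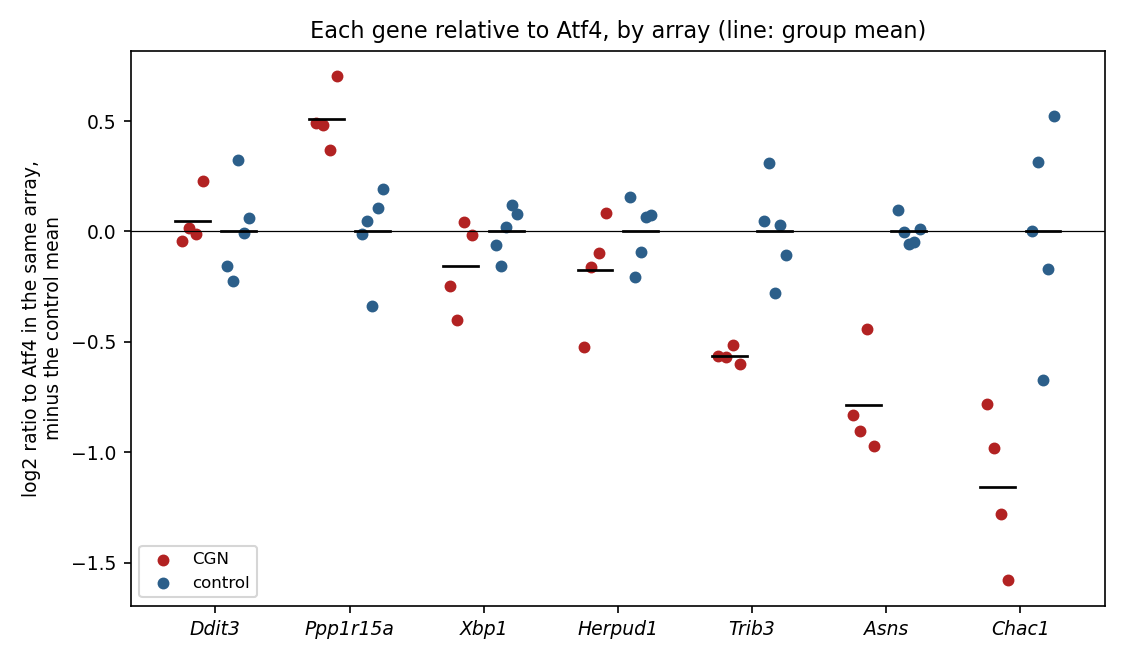
Log2 ratio of each gene to Atf4 in the same array, minus the control mean; points are arrays and lines are group means. The CGN arrays of Ppp1r15a lie above all controls and those of Trib3, Asns and Chac1 below all controls, while the points of Ddit3, Xbp1 and Herpud1 overlap.

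Among the CGN animals, the 5 genes that rose shared an order of arrays. In all 5, and also in Trib3, which did not pass the test, CGN replicates 2 and 4 lay above CGN replicates 1 and 3, an order held by 15.8% of all genes and by 24.3% of the genes higher in CGN. The order was read from the values of these same genes, so the shares describe it and do not test it. Replicate 2 was highest for 4 of the 5 genes that rose and replicate 4 for 1. In CGN replicates 1 to 4 the mean muscle level was 7.75, 5.49, 5.62 and 7.67, and that of the neutrophil markers 6.56, 6.35, 6.77 and 6.83. The monocyte and macrophage markers stood at 8.08, 8.26, 9.15 and 8.72. What lies behind the shared order was not tested.

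The promoter sequences of the genes were searched for known stress-response motifs, since several of the genes changed together and others with the same regulator did not. All 9 genes had a promoter in the RefSeq table of assembly GRCr8, of which the 250 bases before the gene's start were read on both strands. The 4 motifs were the core of the C/EBP-ATF response element bound by ATF4 with C/EBP partners (TGATGNAA), the ER stress response element bound by ATF6 with NF-Y (CCAAT and CCACG with 9 bases of any kind between them), the unfolded protein response element bound by XBP1 and ATF6 (TGACGTGG) and the cAMP response element (TGACGTCA). They were found in 2.56%, 0.121%, 0.685% and 2.33% of 14011 promoters of genes on the array. A match is a description of letters and not a shown binding site. The 5 promoters with a match are printed 5′ to 3′ on the gene's strand, with the match in capitals.
Ppp1r15a: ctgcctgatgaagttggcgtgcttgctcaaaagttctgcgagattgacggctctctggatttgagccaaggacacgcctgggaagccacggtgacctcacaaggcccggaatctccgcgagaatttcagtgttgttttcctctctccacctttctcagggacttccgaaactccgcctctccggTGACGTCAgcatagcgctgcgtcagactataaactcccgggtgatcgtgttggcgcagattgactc
Xbp1: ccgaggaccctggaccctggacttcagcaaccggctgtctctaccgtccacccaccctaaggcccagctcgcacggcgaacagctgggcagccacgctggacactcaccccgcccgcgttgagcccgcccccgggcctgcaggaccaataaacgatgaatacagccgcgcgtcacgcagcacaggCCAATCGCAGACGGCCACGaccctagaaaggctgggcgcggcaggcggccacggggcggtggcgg
Herpud1: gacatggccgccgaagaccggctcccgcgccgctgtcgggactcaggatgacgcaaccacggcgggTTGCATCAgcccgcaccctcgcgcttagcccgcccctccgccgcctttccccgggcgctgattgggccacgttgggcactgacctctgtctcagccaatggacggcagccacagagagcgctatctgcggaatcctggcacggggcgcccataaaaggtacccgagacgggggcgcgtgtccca
Trib3: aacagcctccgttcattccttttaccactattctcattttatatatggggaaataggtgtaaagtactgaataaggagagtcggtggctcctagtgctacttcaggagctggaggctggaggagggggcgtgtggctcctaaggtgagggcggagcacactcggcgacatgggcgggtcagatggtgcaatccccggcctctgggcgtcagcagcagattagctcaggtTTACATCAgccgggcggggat
Chac1: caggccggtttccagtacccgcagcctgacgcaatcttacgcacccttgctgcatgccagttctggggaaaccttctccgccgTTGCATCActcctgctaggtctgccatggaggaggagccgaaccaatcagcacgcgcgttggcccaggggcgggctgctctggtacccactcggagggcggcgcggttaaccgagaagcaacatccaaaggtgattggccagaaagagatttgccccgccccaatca
The Ppp1r15a window (chr1:105139597-105139846, minus strand) held the cAMP response element from base 66 before the start. The Xbp1 window (chr14:84604373-84604622, plus strand) held the ER stress response element from base 65 before the start. The core of the C/EBP-ATF element stood on the opposite strand in Herpud1 (chr19:10614708-10614957, minus strand, from base 184), Trib3 (chr3:161275534-161275783, minus strand, from base 21) and Chac1 (chr3:126795881-126796130, plus strand, from base 167). Thus Herpud1, which rose, and Trib3 and Chac1, which did not pass the test, carried the same core in this window. In the windows of Atf4, Ddit3, Asns and Sesn2 these letters were not found.

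Genes whose profile over the 9 arrays was most like that of Atf4 were found by the root mean square difference of log2 values, each profile centred on its own mean. They were Pafah1b1 (0.0980), Ube2j1 (0.0991), Taf5l1 (0.100), Ago2 (0.103) and Aen (0.105). Ube2j1 encodes a ubiquitin-conjugating enzyme of ER-associated degradation. Of the other 7 genes, Xbp1 (0.160) and Ddit3 (0.161) were nearest to Atf4 and Chac1 (0.682) farthest. The profile of Ppp1r15a was most like those of Dnajb1 (0.114), Cyp26b1 (0.160), Itpkc (0.165), Cebpb (0.174) and Akirin1 (0.184). Dnajb1 encodes a cytosolic partner of the chaperone HSP70.

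The wider response was described with 119 genes in lists by role, of which 118 were measured: 25 rose and 17 fell, against 8.72% and 13.5% of all genes, with a median log2 change of 0.12. With the muscle covariate 3 rose and 1 fell, against 2.25% and 0.319% of all genes in that fit, at a median of -0.02. Leaving out CGN replicate 2 gave 13 that rose. Leaving out CGN replicate 4 gave 12 that rose and 9 that fell, and leaving out control replicate 2 gave 15 and 11. The lists differed in how many rose and fell, as the plot of changes by role shows.

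**Figure D4:**
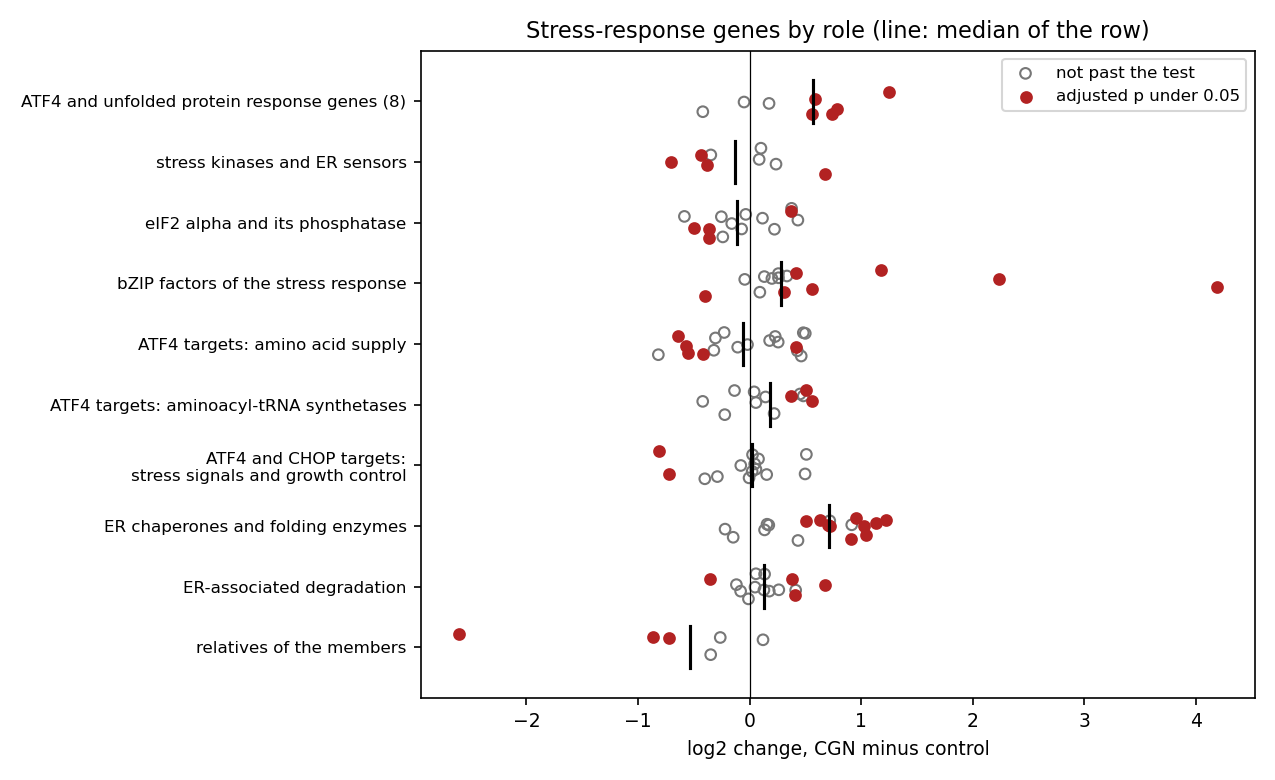
Log2 change (CGN minus control) of each measured gene by role; filled points passed limma at an adjusted p under 0.05, open points did not, and vertical lines are row medians. The ER chaperone row has a median of 0.71, the amino acid supply row one of -0.06, and Atf3 is the farthest point at 4.19.

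Of 8 stress kinases and ER sensors, 1 rose and 3 fell (median log2 change -0.13). With the muscle covariate 0 passed and the median was 0.04: Eif2ak2 was at 1.11 ± 0.37, Eif2ak3 at -0.40 ± 0.22, Eif2ak4 at -0.50 ± 0.28 and Mbtps1 at -0.16 ± 0.16. Eif2ak4 encodes GCN2, the kinase of amino acid shortage, and had 299, 188, 222 and 203 in CGN skin, against 297, 445, 410, 321 and 378 in control skin. CGN replicate 1 lay just within the control range, and the others lay below it. Eif2ak4 fell by 0.71 ± 0.16 on the log2 scale (limma adjusted p = 0.00904), while its second probe set differed by -0.19. Mbtps1, the protease that cuts ATF6, fell by 0.44 ± 0.10 (limma adjusted p = 0.0106). Eif2ak2, the double-stranded RNA kinase PKR, rose by 0.68 ± 0.22 (limma adjusted p = 0.0484), and its 2 dimmer probe sets differed by 0.09 and 0.14. Eif2ak3, the ER kinase PERK, fell by 0.38 ± 0.12 (limma adjusted p = 0.0410). The Eif2ak2 call was lost on leaving out any 1 array other than CGN replicate 2 or control replicate 3 (adjusted p up to 0.123). The Eif2ak3 call was lost on leaving out CGN replicate 3 or 4 or any of control replicates 2 to 5 (adjusted p up to 0.123). The sensors Ern1, which encodes IRE1 (0.24 ± 0.12, 95% interval -0.03 to 0.50), and Atf6 (0.09 ± 0.14, 95% interval -0.22 to 0.39) did not pass.

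Among the subunits of eIF2 alpha's complex, its exchange factor and its phosphatases, listed together with Dnajc3 and Impact, 1 of 14 rose and 3 fell (median -0.12). When the muscle level was added, 0 passed, while the standard errors widened and the changes were close to those without it or larger: Eif2b5 was at -0.46 ± 0.16, Eif2b4 at -0.59 ± 0.16, Eif2b2 at -0.61 ± 0.19 and Ppp1r15b at 0.37 ± 0.21. The 3 that fell encode subunits of the exchange factor eIF2B. Eif2b5 stood between 335 and 406 in CGN skin and between 478 and 530 in control skin, and fell by 0.50 ± 0.09 (limma adjusted p = 0.00220). Eif2b4 and Eif2b2 each fell by 0.36 (limma adjusted p = 0.0231 and 0.0434). Eif2b4 lost the call without CGN replicate 2 or 4 or control replicate 2, 4 or 5 (adjusted p up to 0.0733). Eif2b2 lost it without any 1 array other than CGN replicate 1 or control replicate 3 (adjusted p up to 0.127). Ppp1r15b, the constitutive relative of Ppp1r15a, rose by 0.37 ± 0.11 (limma adjusted p = 0.0385). That call was lost without CGN replicate 1, 2 or 4 or control replicate 1, 2 or 5 (adjusted p up to 0.0944).

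The bZIP factors, leucine-zipper proteins that pair with ATF4 or act beside it, held the largest change of the listed genes. Of 14, 6 rose and 1 fell (median 0.28), and 3 rose and 0 fell with the muscle covariate: Atf3, Batf and Cebpb. Atf3, a stress-induced factor of the same family, had 896, 1120, 638 and 1450 in CGN skin, against 58.4, 33.7, 118.5, 40.4 and 48.4 in control skin. The groups lay far apart, and Atf3 rose by 4.19 ± 0.34 on the log2 scale (limma adjusted p = 1.37e-05). Batf, a partner of AP-1 factors in immune cells, had 87.6, 133, 172 and 148 in CGN skin, against 33.1, 24.5, 25.6, 28.5 and 28.6 in control skin, a rise of 2.23 ± 0.18 (limma adjusted p = 1.05e-05). The neutrophil and macrophage markers rose with these factors, and their part in it was not tested. Cebpb, a partner of ATF4 and an inflammatory regulator, stood between 2704 and 3170 in CGN skin and between 1069 and 1417 in control skin, and rose by 1.18 ± 0.10 (limma adjusted p = 2.06e-05). Nfe2l2, which encodes the oxidative stress factor NRF2, rose by 0.56 ± 0.11 (limma adjusted p = 0.00361). Atf5, a close relative of Atf4, fell by 0.40 ± 0.12 (limma adjusted p = 0.0395). Its call was lost without any 1 array other than CGN replicate 2 or control replicate 5 (adjusted p up to 0.111). Cebpg, another partner of ATF4, was at 0.09 ± 0.13 and did not pass.

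Of 18 ATF4 targets in amino acid supply, 1 rose and 4 fell (median -0.06). Without CGN replicate 1, 5 rose and 5 fell, and over all fits without 1 array 0 to 5 rose and 2 to 5 fell. With the muscle covariate 0 rose and 1 fell (median -0.12). Phgdh and Psat1 encode consecutive enzymes of serine synthesis. Phgdh had 832, 788, 740 and 601.5 in CGN skin, against 1177, 1252, 961.0, 1207 and 1165 in control skin, and fell by 0.64 ± 0.12 (limma adjusted p = 0.00298). Psat1 had 1932, 2003, 2107 and 1944 in CGN skin, against 2769, 3228, 2338, 3452 and 3122 in control skin, and fell by 0.57 ± 0.12 (limma adjusted p = 0.00555). In both, every CGN array lay below every control, as in 10.6% of all genes. Psat1 was the gene that also fell with the muscle covariate (-0.86 ± 0.18, limma adjusted p = 0.0388). The neutral amino acid transporter Slc1a4 fell by 0.42 ± 0.11 (limma adjusted p = 0.0222), a call lost without CGN replicate 2 or 4 (adjusted p = 0.0693 and 0.0697). The cationic amino acid transporter Slc7a3 rose by 0.42 ± 0.12 (limma adjusted p = 0.0293) at low intensity, 16.9 to 23.5 in CGN and 13.9 to 17.9 in controls. That call was lost without CGN replicate 2, 3 or 4 or control replicate 2, 3 or 4 (adjusted p up to 0.0903). Mthfd2, a mitochondrial folate enzyme (0.50 ± 0.18), the cystine transporter Slc7a11 (0.48 ± 0.20) and its partner chain Slc3a2 (0.18 ± 0.09) did not pass (limma adjusted p = 0.0678, 0.113 and 0.218). A second, dimmer probe set of Slc3a2 was higher by 0.35 ± 0.10 (adjusted p = 0.0486 in the fit of all probe sets). The glutamine transporter Slc38a2, named after its values were seen, did not pass on its main probe set (0.23 ± 0.14, limma adjusted p = 0.305). Its second probe set, with geometric means of 667 in CGN and 342 in controls, was higher by 0.96 ± 0.17 (adjusted p = 0.00299 in the fit of all probe sets). Without CGN replicate 1, Mthfd2 and Slc7a11 passed (limma adjusted p = 0.0217 and 0.0190). Slc7a11 was at low intensity, 9.22, 21.2, 12.7 and 12.1 in CGN replicates 1 to 4 and 8.6 to 10.8 in controls. The second probe sets of Mthfd2 and Slc7a11 differed by 0.16 and 0.22.

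Of 12 aminoacyl-tRNA synthetases, which load amino acids onto tRNA, 3 rose and 0 fell (median 0.18). After adding the muscle level 0 passed and the median turned to -0.27: Tars1 was at 0.25 ± 0.18, Yars1 at 0.15 ± 0.17 and Nars1 at -0.03 ± 0.20. Tars1 had 1216, 1480, 1212 and 1386 in CGN skin, against 807, 920.1, 887, 1079 and 987 in control skin, without overlap. It rose by 0.50 ± 0.11 (limma adjusted p = 0.00717). Nars1 rose by 0.55 ± 0.16 and Yars1 by 0.37 ± 0.11 (limma adjusted p = 0.0320 and 0.0263). Both calls were lost without CGN replicate 2, 3 or 4 or control replicate 2 or 3 (adjusted p up to 0.0899 and 0.0828). That of Nars1 was also lost without control replicate 1 and that of Yars1 without control replicate 5. Sars1 went the other way, at -0.42 ± 0.14, and did not pass (limma adjusted p = 0.0548). Without control replicate 3 it passed as a fall (limma adjusted p = 0.00661). Sars1 was at -0.60 ± 0.25 with the muscle covariate, and its second probe set differed by 0.02.

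Of 14 further ATF4 and CHOP targets in stress signalling and growth control, 0 rose and 2 fell (median 0.02). An unadjusted p under 0.05 by limma was reached by 5 of them, and the share of all genes at that threshold was not counted. Without CGN replicate 1, 2 rose and 4 fell. Both calls were lost with the muscle covariate: Bbc3 was at -0.71 ± 0.19 (limma adjusted p = 0.0880) and Map1lc3b at -0.52 ± 0.26 (limma adjusted p = 0.384). Bbc3, which encodes the death-promoting protein PUMA, had 85.7, 74.9, 74.4 and 67.8 in CGN skin, against 133, 119, 154, 129 and 130.1 in control skin. It fell by 0.81 ± 0.10 on the log2 scale (limma adjusted p = 0.000330). Map1lc3b, an autophagosome protein, fell by 0.73 ± 0.15 (limma adjusted p = 0.00565), and its second probe set differed by -0.36 (adjusted p = 0.126 in the fit of all probe sets). The secreted stress signals Gdf15 (0.15 ± 0.10) and Fgf21 (-0.01 ± 0.10), the mTORC1 inhibitor Ddit4 (-0.40 ± 0.15) and the stress regulator Nupr1 (0.06 ± 0.16) did not pass. Eif4ebp1 was at 0.51 ± 0.17 and did not pass either (limma adjusted p = 0.0542). It read 426.5 to 840.9 in CGN skin and 387.0 to 423.3 in control skin, without overlap. Eif4ebp1 passed as a rise without CGN replicate 1 (limma adjusted p = 0.00973), and with the muscle covariate it was at 0.06 ± 0.26.

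Among ER chaperones and folding enzymes, 10 of 18 rose and 0 fell, and their median log2 change was 0.71. Hspa5 encodes BiP, the main ER chaperone, and had 9039, 14150, 9930 and 14280 in CGN skin, against 5016, 4104, 3491, 7892 and 5372 in control skin. The groups did not overlap, although control replicate 4 came close to the lowest CGN array. Hspa5 rose by 1.22 ± 0.23 (limma adjusted p = 0.00348). Dnajb9, a co-chaperone of BiP, rose by 1.04 ± 0.21, the secreted ER protein Manf by 0.95 ± 0.21 and Hsp90b1, the ER form of HSP90, by 0.91 ± 0.21 (limma adjusted p = 0.00478, 0.00833 and 0.00885). The groups did not overlap for Dnajb9 but did for Manf and Hsp90b1. Every CGN array lay above every control in 4 of the 18 genes, as in 8.44% of all genes. Control replicate 4 was the highest control for all 10 genes, and how often it was so over all genes was not counted. In 7 of the 10, CGN replicates 2 and 4 lay above replicates 1 and 3, an order held by 24.3% of the genes higher in CGN. The number that rose was 13 without CGN replicate 1, 4 without CGN replicate 2 and 4 without CGN replicate 4. It was 6 without CGN replicate 3, control replicate 2 or control replicate 5, and 5 with no moderation. Without CGN replicate 2, 1 gene fell. With the muscle covariate 0 passed, and the median was 0.10.

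Of 14 measured genes of ER-associated degradation, 3 rose and 1 fell (median 0.13). With the muscle covariate 0 passed and the median was -0.12: Ube2j1 was at 0.38 ± 0.19, Edem1 at 0.22 ± 0.17, Nploc4 at 0.31 ± 0.18 and Edem2 at -0.49 ± 0.18. Ube2j1 had 392, 549.7, 397 and 421 in CGN skin, against 268, 246, 256, 301 and 300.4 in control skin, and rose by 0.67 ± 0.12 (limma adjusted p = 0.00261). Edem1, which draws misfolded glycoproteins out of the folding cycle, rose by 0.40 ± 0.10 (limma adjusted p = 0.0132). Nploc4, a cofactor of the extracting ATPase p97, rose by 0.38 ± 0.10 (limma adjusted p = 0.0191), a call lost without CGN replicate 2 or 4 (adjusted p = 0.0626 and 0.0614). Edem2 fell by 0.36 ± 0.10 (limma adjusted p = 0.0289), and lost the call without CGN replicate 2 or 4 or control replicate 2, 4 or 5 (adjusted p up to 0.0885).

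Of 6 relatives of the genes, 0 rose and 3 fell (median -0.54), and without CGN replicate 1 the number that fell was 5. No call was kept with the muscle covariate (median -0.30). Sesn1, a relative of Sesn2 that p53 and FoxO factors control, had 267, 89.6, 98.5 and 74.3 in CGN skin, against 716, 710.4, 673, 586.5 and 837 in control skin. It fell by 2.60 ± 0.31 on the log2 scale (limma adjusted p = 0.000226), but its second probe set differed by only -0.08 (adjusted p = 0.781 in the fit of all probe sets). The muscle markers fell with it, and with the muscle covariate the change was -2.18 ± 0.54 (limma adjusted p = 0.0742). Sesn3 fell by 0.87 ± 0.22 (limma adjusted p = 0.0176), a call lost without CGN replicate 3 or 4 (adjusted p up to 0.0614), and Trib2 by 0.73 ± 0.17 (limma adjusted p = 0.0102). The dimmer second probe sets of Sesn3 and Trib2 differed by 0.13 and 0.05. Their main probe sets with the muscle covariate were at -0.35 ± 0.36 for Sesn3 and -0.37 ± 0.28 for Trib2. Trib1 did not pass on its main probe set (0.12 ± 0.11, limma adjusted p = 0.537), while another, with geometric means of 193 in CGN and 43.0 in controls, was higher by 2.17 ± 0.17 (adjusted p = 9.42e-06 in the fit of all probe sets). Chac2 (-0.26 ± 0.30) and Herpud2 (-0.35 ± 0.14) did not pass, but both did without CGN replicate 1 (adjusted p = 0.0435 and 0.0132).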

How the data were processed

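Total RNA of rat skin (4 CGN, 5 control) was measured on 1-colour arrays. The authors deposited intensity values, linear rather than log, that came from RMA per the submitters' processing notes (no version given); RMA corrects background, normalizes arrays to each other and sums up probes. Neither detection calls nor slide or scan records were used here, so background and batch were not examined, and the number of arrays limits the precision. Of both deposited tables, 43685 probe sets were shared. In 1 of them, 1 CGN column carried the number 5, which is in no CGN title, and it equalled 1 CGN array. Nothing beyond the labels says how animals were kept or pooled.

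Intensities were converted to log2 with no offset or filter. Probe sets were named from the deposited table, updated through RefSeq (GRCr8); 16178 had no single gene name and were left out of the gene tests. The brightest probe set stood for each of 19101 genes. The group comparison used lmFit and eBayes of limma 3.58.1 (R 4.3.3), with no term but group, 2-sided, with Benjamini-Hochberg adjustment and a threshold of 0.05. Other probe sets were tested in a fit of all probe sets. Ratios to Atf4 were tested with scipy 1.17.1. The limma fit was also tested on simulated data for CGN against control, with 19101 genes, of which 200 were changed. It recovered 42% of changes of 0.5, 78% of changes of 1 and 100% of changes of 2 and 3 on the log2 scale, with 7 false calls. In the real data 22.2% of genes passed, so the recovered shares do not measure recovery in the real comparison.

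The genes, the lists and the motifs were chosen with earlier results of these data known. Named were all 9 genes, in each list up to 4 genes of lowest adjusted p, a fixed set of further genes past the threshold or not, and the 5 genes most like Atf4 and Ppp1r15a. The alternatives were median centring, quantile normalization, an offset of 16, leaving out the dimmest 30%, the mean of probe sets, all probe sets, trend and robust moderation, no moderation, array weights, the muscle covariate, the replicate number as a block and leaving out each array. Promoters were RefSeq sequence of GRCr8, and no build is given in the sources used here for the array.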

Additional observations from a re-analysis of the deposited data

Results flagged for a closer look

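In 57 genes, the groups of 4 and of 5 arrays (114 groups) were searched for a single array far from the others by Dixon's test, and 10 arrays stood apart; chance alone flags about 1 in 20 groups. Values are intensities. Among the 9 genes named at the outset, Ppp1r15a in control replicate 3 stood at 209.6, with the other controls between 296.1 and 333.8. CGN replicate 1 stood apart in 3 genes: Map1lc3b at 626.6 (others 376.8 to 399.9), Chac2 at 37.3 (others 13.1 to 15.5) and Slc7a3 at 16.9 (others 22.6 to 23.5). CGN replicate 2 stood apart in Atf5 at 490.9 (others 347.6 to 361.6) and Ern1 at 25.0 (others 20.5 to 21.0). CGN replicate 4 was low for Eif2b2 at 198.0 (others 249.0 to 259.8). Control replicate 3 was low for Eif2b2 at 254.1 (others 309.5 to 329.5) and for Phgdh at 961.0 (others 1165.2 to 1252.4). Control replicate 1 was low for Nfe2l2 at 1266.8 (others 1487.1 to 1556.8).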

How the results depend on the processing

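Atf4, Ddit3, Ppp1r15a and Xbp1 kept direction and call under every alternative run except the muscle covariate, where the log2 changes were 0.62, 0.72, 1.04 and 0.40 and 0 of the 8 genes rose; the cause was not tested. Leaving out single arrays gave 0.63 to 0.81 for Atf4, 0.69 to 0.88 for Ddit3, 1.13 to 1.37 for Ppp1r15a, 0.52 to 0.66 for Xbp1 and 0.45 to 0.73 for Herpud1, and 4 to 5 genes that rose. Herpud1 lost its call with the muscle covariate (0.34), quantile normalization (0.50), an offset of 16 (0.56), all probe sets tested (0.56), no moderation (0.56) and the replicate block (0.57). Asns, never past the test, turned positive with median centring (0.0125) and the mean of its probe sets (0.10), and ran from -0.11 to 0.0126 without single arrays. Sesn2 turned positive with the mean of its probe sets (0.07), array weights (0.0034) and without CGN replicate 1 (0.064), and ran from -0.19 to 0.064 without single arrays. The difference of Trib3 from Atf4 was -0.40 after quantile normalization (an alternative chosen after seeing the data), and that of Ddit3 ran from -0.01 to 0.13 without single arrays. Of the listed genes, 3 rose and 1 fell with the muscle covariate, 14 rose and 7 fell with the replicate block, and 12 to 37 rose and 9 to 22 fell without single arrays, against 25 and 17. By the replicate numbers of the titles no pairing was seen: deviations of same-numbered arrays correlated at -0.28, 0.04, 0.01 and -0.12. By these numbers, 0 CGN arrays correlated best with the control of their own number. The deposited column of 1 CGN array carried the number 5, which is in no CGN title, and pairing by that number was not examined. With the replicate block, which also used the title numbers, 4 of the 8 genes rose. Of changes of 0.5 on the log2 scale, 42% were recovered in simulated data for CGN against control, so changes of this size can be missed. The simulation changed 200 of 19101 genes, while 22.2% passed in the real data. The share missed in the real comparison is therefore not known.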
